A study of Mus musculus with 21 samples.

Results

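The genes described here encode the proteins of the mitochondrial ribosome. They were taken by symbol, as every row of the deposited count table named Mrpl or Mrps followed by a number and at most 1 letter, which gave 77 of the 39396 genes in the table. The symbols cover 50 genes of the large subunit, 26 of the small subunit, and Mrps36, whose product is now placed in the 2-oxoglutarate dehydrogenase complex of the citric acid cycle and not in the ribosome. Mrps18a and Mrps30 are counted with the large subunit, where their proteins sit despite the small-subunit symbol. Of the 76 ribosomal genes, 29 large-subunit and 16 small-subunit members have a counterpart in bacterial ribosomes, and 21 and 10 are counted as found in mitochondria alone. Mrps18a and Mrps18b are counted as found in mitochondria alone although they are related to bacterial S18.

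Mitochondria carry their own small genome, whose few protein-coding genes all specify subunits of the respiratory chain and the ATP synthase. The ribosome that translates them is a hybrid: its rRNAs are transcribed from the mitochondrial genome, and its proteins are encoded in the nucleus, made in the cytosol and imported. Pluripotent cells are known for immature mitochondria and for shifts between respiration and glycolysis as they pass from the naive to the primed state.

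The libraries came from mouse pluripotent cells, 3 from each of 7 groups. A2 and D3, both embryonic stem cell lines, were held in the ground state with serum, the cytokine LIF at 1000 U/mL and 2i, which blocks the kinases MEK and GSK3. Naive cells had gone 4 days without 2i. EPL cells (early primitive ectoderm-like cells) came from 4 days in serum with LIF at 330 U/mL and L-proline at 400 uM. EpiSCs (epiblast stem cells) were sampled for A2 alone: A2 embryonic stem cells had been placed in a pseudopregnant mouse, recovered after implantation, and grown in serum replacement with activin A and bFGF. The EpiSC stage therefore differs from the others in origin and in medium together, which cannot be told apart, and it stands on 1 line. The serum media of both lines held penicillin, streptomycin and the additive written B-Mec in the labels. The labels do not tie the 3 libraries of a group to separate cultures. A p-value here therefore rests on a spread between libraries that may be technical.

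Libraries held 15320599 to 23490527 counts, of which 62862 to 108793 fell on the 77 genes. Levels below are CPM, counts relative to the library's total after TMM scaling, and differences are log2 fold changes ± SE. A gene is called where the adjusted p (edgeR quasi-likelihood test, Benjamini-Hochberg over the 16575 genes tested) is below 0.05. Pou5f1, the core pluripotency factor, was at 1074 to 1398 CPM on average in the 6 embryonic stem cell and EPL groups and at 489 CPM in EpiSCs. Other stage markers did not run in 1 direction in EpiSCs against A2 EPL cells: the naive-state genes Klf4 and Tbx3 were higher (141 against 58.9 and 84.7 against 21.2 CPM) and Zfp42 was lower (317 against 875 CPM). The epiblast genes Dnmt3b, Otx2 and Pou3f1 were lower (90.4 against 793, 13.2 against 59.2 and 19.7 against 64.6 CPM), while Fgf5 and T were higher (12.7 against 4.51 and 4.41 against 0.229 CPM). Fibroblast markers were also present in the EpiSC libraries: the summed level of 8 fibroblast markers was 2110 to 2652 CPM there and 5.27 to 12.4 CPM in the other 18 libraries, and all 8 were called higher in EpiSCs. In the D3 naive group replicate 2 stood apart, with the highest level of all 21 libraries for 58 of the 76 members tested. The share over all genes was not taken.

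The genes lie on 17 chromosomes, with 11 on chromosome 11 and 8 on chromosome 17 (GENCODE M21, build GRCm38). A protein-coding neighbour on the opposite strand started within 1000 bases, head to head, for 23 of 77 (29.87%), against 7.985% of the 21453 protein-coding genes in the table. The latter share is over genes whether tested or not, and none was taken over tested genes alone. Promoter windows from RefSeq (build GRCm38.p6, 250 bases before to 50 after a start) matched 68 members in 74 windows. Each window was searched on both strands for the cores bound by 3 factors known at promoters of mitochondrial genes: for NRF1 the letters GCGC and TGCGC with any single base N between them, for ETS factors such as GABPA the letters CCGGAAG, and for YY1 the letters AAGATGGCG. The NRF1 letters were in the windows of 19.1% of matched members (13), against 10.2% of the 11954 tested genes and 5.19% of all 27025 genes with a window. ETS letters were there for 36.8% (25), against 18% of tested and 9.93% of all genes. For YY1 the shares were 11.8% (8), 3.12% and 1.64%. TATAAA was found for 5 members (7.35%), against 9.1% of tested and 15.7% of all genes. Median GC content was 59% in member windows and 60.33% in those of tested genes.

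The windows of 6 members are shown without the last 50 bases, as the 250 bases before the RefSeq start, 5′ to 3′ on the gene's strand, with NRF1 and ETS letters in capitals. Mrps18b, Mrpl44 and Mrpl17 are shown because they fell among the furthest in EpiSCs, and Mrpl45 because it holds more than 1 NRF1 match. Mrpl12 and Mrpl34 are shown because their levels per length of exon were among the highest. In the order printed they lie at chr17:35916441-35916690 (-), chr1:79775768-79776017 (+), chr7:105811088-105811337 (-), chr11:97315466-97315715 (+), chr11:120484387-120484636 (+) and chr8:71464676-71464925 (+).
Mrps18b: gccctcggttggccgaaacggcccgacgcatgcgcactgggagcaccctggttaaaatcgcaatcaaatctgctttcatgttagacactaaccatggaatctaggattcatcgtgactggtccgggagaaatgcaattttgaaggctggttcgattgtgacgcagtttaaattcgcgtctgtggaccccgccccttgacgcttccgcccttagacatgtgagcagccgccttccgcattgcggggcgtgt
Mrpl44: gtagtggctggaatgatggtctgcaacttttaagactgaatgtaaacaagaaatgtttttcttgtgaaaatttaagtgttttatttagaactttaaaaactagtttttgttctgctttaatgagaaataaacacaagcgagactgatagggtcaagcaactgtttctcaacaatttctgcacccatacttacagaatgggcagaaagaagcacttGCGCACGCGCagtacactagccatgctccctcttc
Mrpl17: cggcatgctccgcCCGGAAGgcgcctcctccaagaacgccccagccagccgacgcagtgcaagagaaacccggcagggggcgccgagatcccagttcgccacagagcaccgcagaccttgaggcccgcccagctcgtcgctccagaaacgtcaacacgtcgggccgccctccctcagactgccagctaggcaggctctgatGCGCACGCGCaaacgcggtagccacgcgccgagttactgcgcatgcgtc
Mrpl45: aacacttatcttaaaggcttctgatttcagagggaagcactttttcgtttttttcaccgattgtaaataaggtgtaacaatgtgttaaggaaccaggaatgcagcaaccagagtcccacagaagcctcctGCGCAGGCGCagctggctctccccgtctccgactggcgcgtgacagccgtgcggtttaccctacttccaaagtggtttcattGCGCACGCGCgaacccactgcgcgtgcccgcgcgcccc
Mrpl12: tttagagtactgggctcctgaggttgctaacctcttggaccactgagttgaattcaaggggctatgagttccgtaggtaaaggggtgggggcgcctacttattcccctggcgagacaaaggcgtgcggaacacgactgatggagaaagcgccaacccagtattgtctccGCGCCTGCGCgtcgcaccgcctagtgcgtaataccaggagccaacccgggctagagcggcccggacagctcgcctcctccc
Mrpl34: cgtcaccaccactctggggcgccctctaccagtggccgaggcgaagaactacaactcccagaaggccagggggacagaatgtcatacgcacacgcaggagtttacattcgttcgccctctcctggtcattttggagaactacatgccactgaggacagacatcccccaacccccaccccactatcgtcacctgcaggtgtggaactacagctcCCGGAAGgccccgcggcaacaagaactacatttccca
Mrps18b has no full match in these bases, and the ETS match in its window is not wholly within them. A match is a description of letters, not a bound site. Members with and without NRF1 letters had median log2 differences of -0.365 and -0.45 between EpiSCs and EPL cells, and the medians with and without ETS letters were -0.39 and -0.46.

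Expression was general and moderate. Per length, the mean level over the libraries had a median of 21.6 RPKM (CPM per kilobase of exon), against 3.69 RPKM over all genes tested. The highest were Mrpl34 at 90.8 RPKM, Mrpl2 at 81.6 RPKM, Mrpl12 at 72.6 RPKM and Mrpl18 at 63.4 RPKM. Mrpl48 at 2.29 RPKM, Mrpl32 at 4.73 RPKM and Mrpl23 at 4.89 RPKM were the lowest with counts. The length is that of all annotated exons merged, 607 bases for Mrpl34, 4982 for Mrpl32 and 8152 for Mrpl48. This order therefore depends on the annotation. In CPM, group means were 39.8 to 81.3 for Mrpl34 and 111 to 309 for Mrpl15. Mrpl53 had 0 counts in every library, where 3 counts would be 0.117 to 0.195 CPM, and 87.97% of its exon bases lie under exons of Ccdc142os or Gm42688. The assignment of reads on shared bases is not given in the labels, and the library kit does not mark strand, so reads from overlapping genes cannot be told apart. Exons of another gene overlapped 32 members, and covered at least 50% of the exon bases of Mrpl53, Mrps34 (77.8%) and Mrps25 (69.8%). The other 76 members passed the filter on low counts.

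The set moved within narrow bounds. The ratio of the highest to the lowest group mean had a median of 1.72 over the members (quartiles 1.5 and 1.89) and of 2.31 over all genes tested, and it reached 2 for 16 members (21.1%) against 59.3% of all genes. Members and all genes were not matched for level (medians 21.6 and 3.69 RPKM), and the ratio also takes in the spread between libraries. The ratio was widest for Mrpl15 (2.78), Mrps18b (2.51), Mrps14 (2.47), Mrpl45 (2.30) and Mrpl12 (2.25). It was narrowest for Mrps18a (1.23), Mrpl32 (1.26) and Mrps21 (1.26). EpiSCs were the lowest group for 60 of 76 members and D3 naive cells the highest for 43. Shares over all genes were not taken for these counts, and D3 naive replicate 2 alone was the highest library for 58 members. At least 1 difference among the 7 groups was called for 73 members, against 93.6% of all genes, with Mrpl13, Mrpl32 and Mrpl41 not called.

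**Figure D1:**
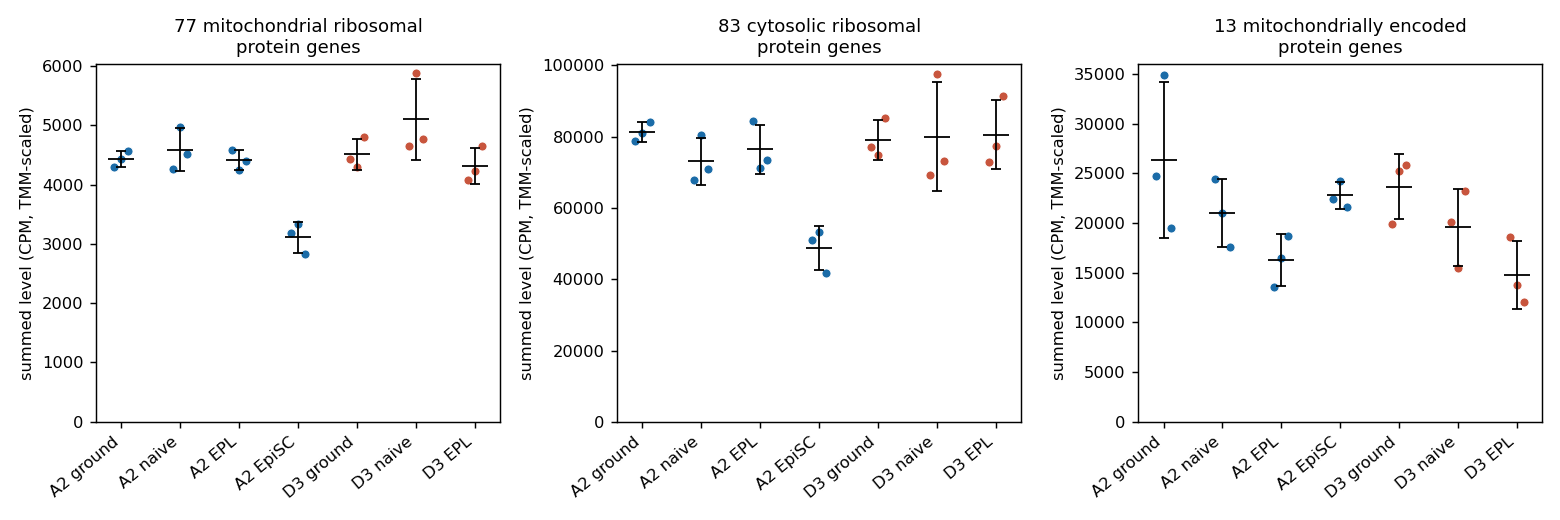
Summed level (CPM, TMM-scaled, axes from 0) per library in the 7 groups for the 77 mitochondrial ribosomal protein genes, 83 cytosolic ribosomal protein genes and 13 mitochondrially encoded protein genes; points are libraries (blue A2, red D3), bars the mean ± SD of 3. In EpiSCs the sum over the mitochondrial ribosomal protein genes was 2824 to 3327 CPM, below every other library, whereas the mitochondrially encoded sum in EpiSCs lay within the range of the other groups.

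Summed over the set, A2 libraries held 4432 ± 141 CPM in the ground state, 4585 ± 365 CPM in naive cells, 4408 ± 170 CPM in EPL cells and 3112 ± 259 CPM in EpiSCs (SD, n = 3). In D3 the sums were 4512 ± 262, 5099 ± 682 and 4320 ± 302 CPM from ground to EPL. The 3 EpiSC libraries lay below the other 18, and among the rest the stages of each line overlapped. Between the lines, every D3 naive library lay above every A2 ground and A2 EPL library. D3 naive replicate 2 reached 5883 CPM, and the cytosolic ribosomal protein sum was also highest there, at 97642 CPM.

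Small- and large-subunit genes kept a nearly fixed proportion. The small-subunit sum was 0.425 ± 0.010 of the large-subunit sum in D3 naive cells and 0.429 ± 0.005 in A2 naive cells, the lowest groups. It was 0.448 ± 0.008 and 0.454 ± 0.004 in the ground state of A2 and D3, and 0.452 ± 0.003 in EpiSCs (SD, n = 3). Within each line every naive library had a lower ratio than every ground-state library. In EpiSCs the ratio lay inside the range of ground-state libraries.

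**Figure D2:**
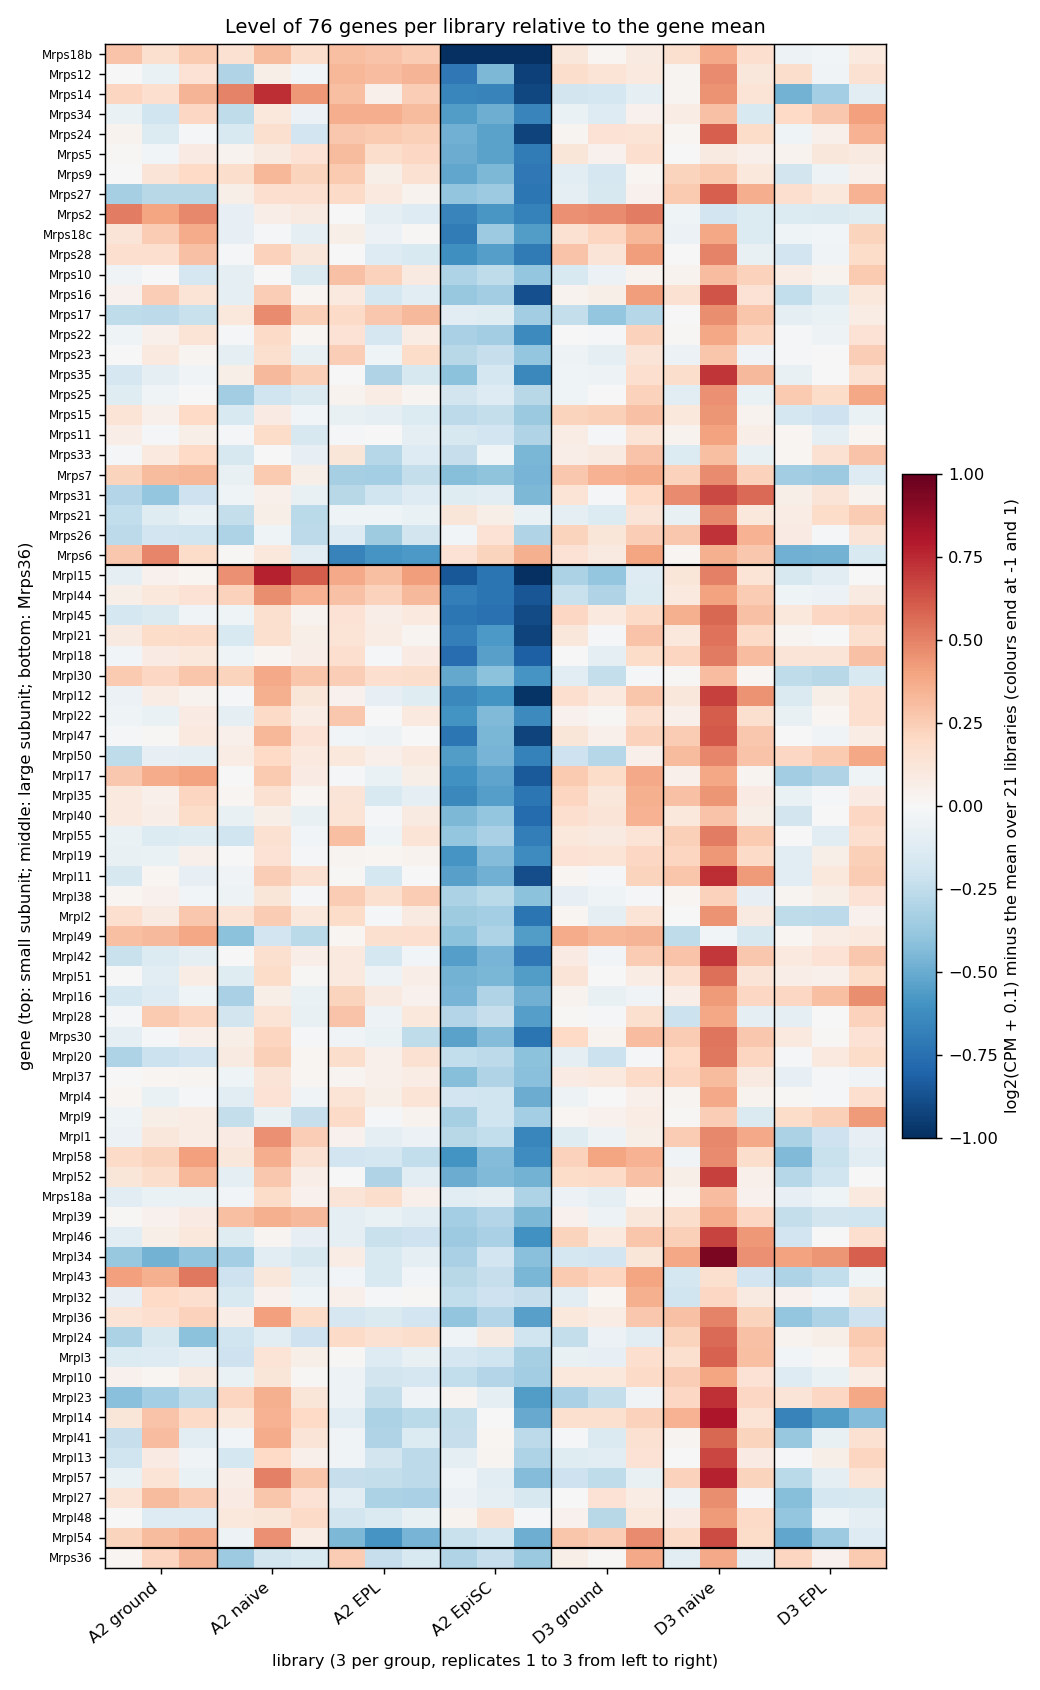
Level of each of the 76 tested genes (rows, small subunit above, large subunit below, Mrps36 last, ordered by the EpiSC to EPL difference within each) in each of 21 libraries (columns), as log2(CPM + 0.1) minus the gene's mean; blue is below and red above the mean. The EpiSC columns are blue for nearly every gene, the second D3 naive column is red for most, and Mrps6 is pale in EpiSCs and blue in EPL cells.

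The difference that ran through the set was the lower level in EpiSCs. Against A2 EPL cells, 53 of 76 members (69.7%) were called lower and 1 (1.32%) higher, where 31.3% of all genes were lower and 39.1% higher (70.4% called in either direction). The median log2 difference was -0.45 for members and 0.07 for all genes. Both subunits took part: 16 of 26 small-subunit genes and 37 of 49 large-subunit genes were lower. Lower levels were called for 32 of 45 members with a bacterial counterpart (median -0.52) and for 21 of 30 found in mitochondria alone (median -0.39), a difference that was not tested.

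Most members were also lower against the other A2 stages. Against the ground state 59 members (77.6%) were lower and 1 higher (all genes 34.1% and 39.1%, 73.2% in either direction), with medians of -0.47 and 0.04. Against naive cells 62 members (81.6%) were lower and none was higher (all genes 31.2% and 39.1%, 70.3% in either direction), with medians of -0.49 and 0.08. The count of 0 is from edgeR. DESeq2 also called 0 higher, and 1 member was higher at an unadjusted p below 0.05. These 3 comparisons share the EpiSC libraries. In 46 members (19.4% of all genes) the level was called lower against all 3 stages, and 47 members (14.9% of all genes) were below all 18 other libraries in every EpiSC library.

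**Figure D3:**
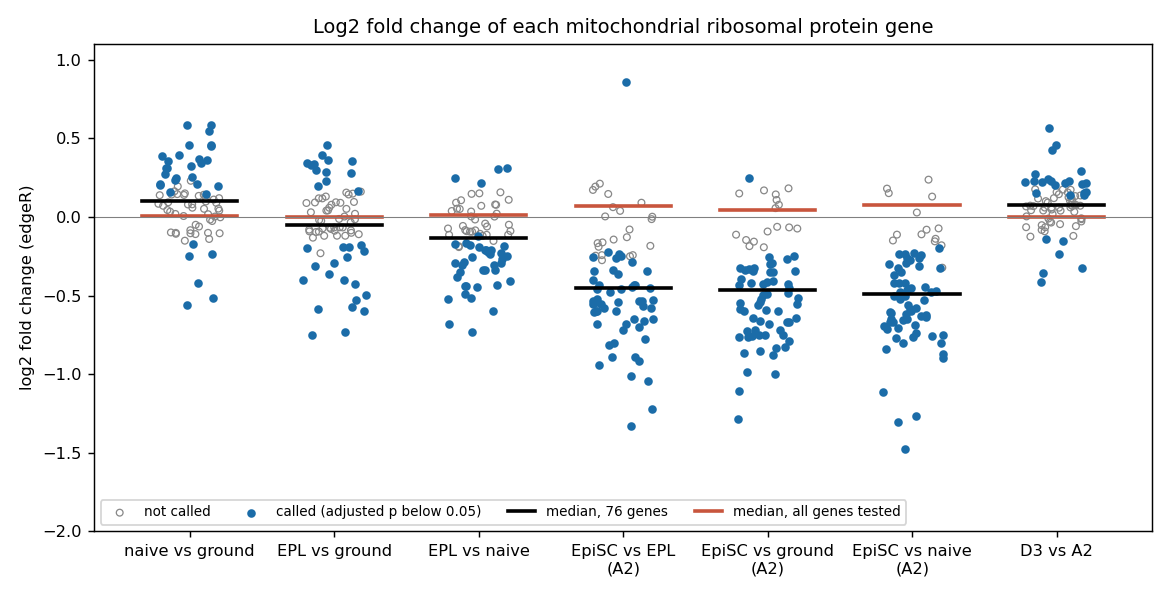
Log2 fold change (edgeR) of each of the 76 genes in 7 comparisons; filled points are called at an adjusted p below 0.05, open points are not, black lines mark the median of the 76 genes and red lines that of all 16575 genes tested. In the 3 EpiSC comparisons the black line lies at -0.45 to -0.49 and the red line at 0.04 to 0.08; in the other comparisons both lie near 0.

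Fibroblast markers moved with all of these values. The 8 fibroblast markers were all detected there, led by Col1a1 at 1232 CPM, a collagen chain of connective tissue, against 0.62 to 2.21 CPM in the other groups. The EpiSC library with the highest fibroblast sum (replicate 3, 2652 CPM) had the lowest member sum (2824 CPM), and the one with the lowest fibroblast sum (replicate 2, 2110 CPM) had the highest member sum (3327 CPM). The part of fibroblast RNA in the lower member levels was not tested. In bulk samples fewer cells of a type and less RNA per cell cannot be told apart. Without replicate 3 the member medians against EPL, ground and naive cells were -0.40, -0.40 and -0.41.

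Scaling set the size of the shift. With libraries scaled to their total counts the median of all genes was 0.26 to 0.30 log2 units higher in EpiSCs than in the other A2 stages. Member medians were then -0.24 against EPL, -0.20 against ground and -0.30 against naive cells, with 40, 36 and 44 members lower and 7, 9 and 4 higher. Of all genes 21.9%, 22.1% and 23.3% were then lower and 48.1%, 50% and 47.3% higher. Relative to the median of all genes the members lay 0.52, 0.51 and 0.57 lower under either scaling. A change of scaling shifts all genes in a comparison by nearly the same amount. These values could therefore hardly differ between scalings and are no check on them.

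The small-subunit protein gene Mrps18b, 1 of 3 mammalian paralogues related to bacterial S18, showed the largest fall against EPL cells. In A2 it stood at 54.3, 49.96 and 53.6 CPM in the ground state, 49.5, 55.5 and 50.5 CPM in naive cells, 55.03, 54.4 and 53.1 CPM in EPL cells and 22.2, 21.9 and 20.7 CPM in EpiSCs. The D3 libraries ranged from 43.1 to 58.2 CPM. Every EpiSC library was below all other libraries, and the other A2 stages overlapped. The log2 differences were -1.33 ± 0.07 against EPL (adjusted p = 7.6e-13), -1.29 ± 0.07 against ground and -1.26 ± 0.07 against naive cells. Exons of the antisense gene Gm16279, itself at 0.927 to 3.32 CPM, cover 30.5% of its exon bases. Its paralogue Mrps18c, the closest to the bacterial protein, changed by -0.53 ± 0.12 against EPL, -0.79 ± 0.12 against ground and -0.47 ± 0.12 against naive cells (adjusted p from 2.6e-06 to 0.0011). Mrps18a, a large-subunit protein, changed by -0.29 ± 0.08 against EPL (adjusted p = 0.0044). Against ground its value of -0.09 ± 0.08 was not called (adjusted p = 0.33), and against naive cells its value of -0.24 ± 0.08 (adjusted p = 0.015) lost its call without A2 naive replicate 2 (-0.18) or A2 EpiSC replicate 3 (-0.18) and under total-count scaling (-0.06).

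Mrpl15, which encodes a core large-subunit protein with a bacterial counterpart, had the widest span. Its A2 levels were 189, 208 and 204 CPM in the ground state, 276, 343 and 306 CPM in naive cells, 261, 248 and 268 CPM in EPL cells and 112, 121 and 99.6 CPM in EpiSCs. The 4 stages did not overlap in A2 and ran in the order EpiSC, ground, EPL, naive. The gene fell by 1.22 ± 0.10 against EPL cells (adjusted p = 4.4e-10) and by 1.48 ± 0.10 against naive cells (adjusted p = 2.1e-11). In D3 the levels were 162, 154 and 184 CPM, 219, 286 and 221 CPM and 179.9, 187 and 201 CPM from ground to EPL, with ground and EPL libraries overlapping.

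Other members that fell far in EpiSCs were of both subunits. Mrpl44, a large-subunit protein with an RNase III-like fold, changed by -1.05 ± 0.08 against EPL and -1.11 ± 0.08 against naive cells. Mrps12, the homologue of the decoding-centre protein S12, changed by -1.01 ± 0.12 against EPL, -0.72 ± 0.12 against ground and -0.60 ± 0.12 against naive cells. Mrps14 changed by -0.98 ± 0.11 against ground and -1.30 ± 0.11 against naive cells. Mrps2 changed by -1.10 ± 0.06 and Mrpl17 by -1.001 ± 0.10 against ground. Adjusted p for these values ran from 5.1e-13 to 1.1e-04 (edgeR).

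The stalk and its base, which recruit translation factors, are made of Mrpl12, Mrpl10 and Mrpl11. Mrpl12 was at 111, 102 and 99.1 CPM in A2 EPL cells and 68.9, 71.3 and 54.6 CPM in EpiSCs. The groups did not overlap, and the difference was -0.68 ± 0.12 (adjusted p = 4.1e-05). Against ground and naive cells Mrpl12 changed by -0.75 ± 0.12 and -0.90 ± 0.12. Mrpl11 changed by -0.58 ± 0.12 against EPL (adjusted p = 2.1e-04), -0.55 ± 0.12 against ground and -0.76 ± 0.12 against naive cells. Mrpl10 differed by -0.16 ± 0.07, which was not called (adjusted p = 0.053), but changed by -0.35 ± 0.07 against ground (adjusted p = 2.0e-04) and -0.32 ± 0.07 against naive cells (adjusted p = 4.7e-04).

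Members with other roles or names were called in part. Mrps30, a large-subunit protein also known as PDCD9, changed by -0.45 ± 0.10 against EPL (adjusted p = 3.0e-04), -0.54 ± 0.10 against ground and -0.65 ± 0.10 against naive cells. Mrpl58, a peptidyl-tRNA hydrolase that rescues stalled ribosomes and is also built into the large subunit, fell by 0.34 ± 0.11 against EPL (adjusted p = 0.009) by 0.83 ± 0.11 against ground (adjusted p = 6.3e-07) and by 0.76 ± 0.11 against naive cells (adjusted p = 2.2e-06). Mrps36, the dehydrogenase subunit, differed from EPL by -0.28 ± 0.14 without a call (adjusted p = 0.082) and fell by 0.50 ± 0.14 against ground (adjusted p = 0.0026), or by 0.23 without a call under total-count scaling (adjusted p = 0.11). Against naive cells it differed by -0.07 ± 0.14 without a call (adjusted p = 0.65).

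Mrps6, a small-subunit protein with a bacterial counterpart, was the one member called higher in EpiSCs than in EPL cells. It was at 23.4, 27.2 and 22.01 CPM in A2 ground cells, 19.5, 20.9 and 18.1 CPM in naive cells, 12.2, 12.8 and 13.04 CPM in EPL cells and 21.5, 22.7 and 24.8 CPM in EpiSCs. The EPL libraries were the low ones, and EpiSC and ground libraries overlapped. The difference between EpiSCs and EPL cells was 0.86 ± 0.12 (adjusted p = 9.6e-07), and -0.07 ± 0.11 against ground was not called. Slc5a3, a myo-inositol transporter gene on the same strand, shares exon bases with Mrps6, 19.9% of which lie under other genes' exons, and it rose by 2.22 ± 0.19 in the same comparison, from 5.49 to 25.5 CPM. The part of Slc5a3 reads in the Mrps6 count was not tested. The member called higher against the ground state, Mrpl24, had a difference of 0.25 ± 0.09 (adjusted p = 0.019), which lost its call without A2 EpiSC replicate 1 or 2, or without A2 ground replicate 3 (range of differences 0.17 to 0.32 over single libraries left out).

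**Figure D4:**
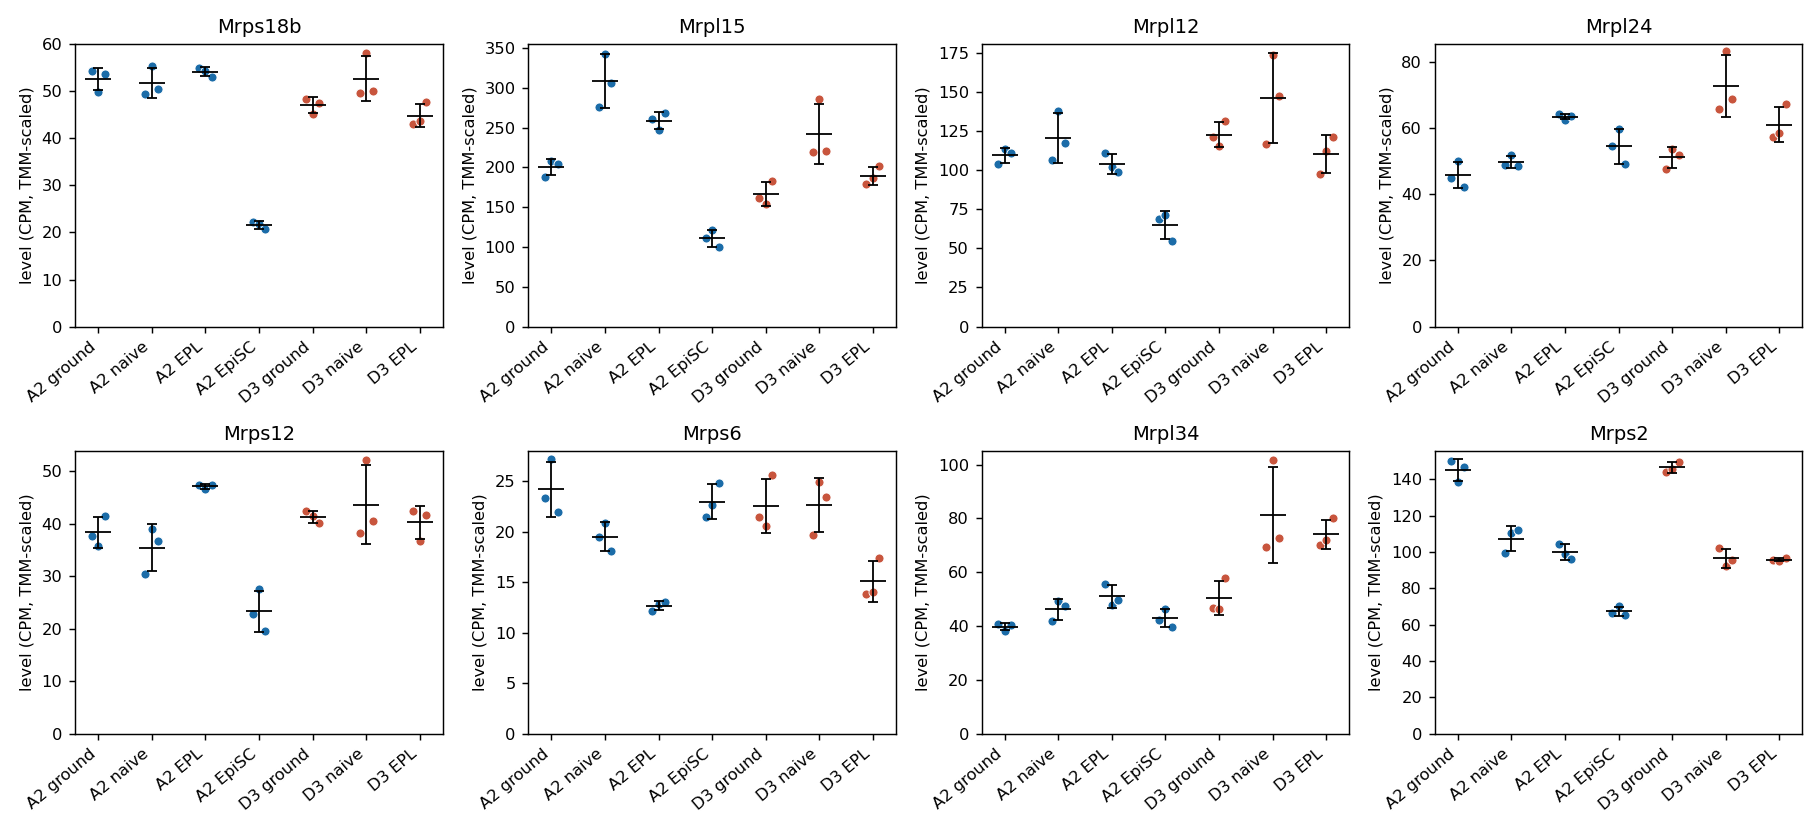
Level (CPM, TMM-scaled, axes from 0) of 8 members per library in the 7 groups; points are libraries (blue A2, red D3), bars the mean ± SD of 3. Mrps18b, Mrpl15, Mrpl12 and Mrps12 are lowest in EpiSCs, Mrps6 is lowest in EPL cells, Mrps2 is highest in the ground state of both lines, and Mrpl34 is higher in D3 naive and EPL cells than in any A2 library.

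Cytosolic ribosomal protein genes gave a reference. Of 83, 78 were called lower in EpiSCs than in EPL cells (median -0.63), 81 were lower against ground (median -0.72) and 76 against naive cells (median -0.58). Of all genes 31.3%, 34.1% and 31.2% were lower in these comparisons, and 39.1% were higher in each. Assembly and rRNA-modifying factors of the mitochondrial ribosome were lower for 20 of 28 against EPL and higher for 2, Mettl15 and Mpv17l2 (median -0.38). The strongest were Fastkd2, an RNA-binding protein of mitochondrial RNA granules, at -1.23 ± 0.10, Gtpbp6, a ribosome-recycling GTPase, at -1.05 ± 0.12, and Mterf4, a large-subunit assembly factor, at -0.90 ± 0.09. Translation factors were lower for 5 of 15 and higher for 1 (Taco1, a translational activator), with Gfm2, a recycling factor, at -0.67 ± 0.06 and Tufm, the elongation factor, at -0.54 ± 0.07. The share of translation factors that were lower was close to that of all genes. The 5 ribosomal proteins with other symbols were lower for 3, led by Ptcd3 at -0.74 ± 0.06.

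Genes of mitochondrial transcription were mostly lower too, where 31.3% of all genes were lower than in EPL cells and 39.1% higher. Among 5 genes of mitochondrial transcription 4 fell against EPL, including the polymerase Polrmt at -0.73 ± 0.07, its elongation factor Tefm at -0.71 ± 0.13 and Tfam, which packages the mitochondrial genome, at -0.60 ± 0.08. Of 10 nuclear regulators 8 were lower and 1, the nuclear receptor Esrra, was higher. Myc changed by -2.35 ± 0.10, Mycn by -1.99 ± 0.07 and Ppargc1b, a coactivator of mitochondrial biogenesis, by -1.46 ± 0.19.

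Protein-coding transcripts of the mitochondrial genome did not share this direction. Of 13 mitochondrially encoded protein genes 7 were called higher in EpiSCs than in EPL cells and none lower (all genes 39.1% and 31.3%). The median of the 13 was 0.47 (edgeR). The largest differences were 1.49 ± 0.49 for mt-Atp8 and 0.997 ± 0.33 for mt-Atp6, both of the ATP synthase, and 0.97 ± 0.18 for mt-Nd5 of complex I. The EpiSC libraries were far apart for mt-Atp8 (28.2, 25.97 and 7.96 CPM) and mt-Atp6 (160.4, 73.3 and 38.3 CPM), and replicate 3 lay within or below the A2 EPL range. For mt-Nd5 they were at 2762, 2783 and 2467 CPM, above all A2 EPL libraries (1168 to 1550 CPM). Against ground 3 of the 13 were lower and none higher (all genes 34.1% and 39.1%), with a median of -0.05. Against naive cells 3 were higher and none lower (all genes 39.1% and 31.2%), with a median of 0.07. The sum over the 13 genes was 22782 ± 1350 CPM in EpiSCs, 16281 ± 2569 CPM in A2 EPL cells and 26353 ± 7821 CPM in A2 ground cells (SD, n = 3). EpiSC and EPL libraries did not overlap, and EpiSC libraries lay within the spread of the ground state.

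Withdrawal of 2i moved a smaller group of genes. Between naive and ground cells, as the mean of both lines, 25 of 76 members (32.9%) were called higher and 6 (7.89%) lower, where 31.7% of all genes were higher and 31.8% lower (63.5% in either direction). The share higher was close to that of all genes and the share lower was below it. The member median was 0.10 and that of all genes 0.01. Scaling to total counts gave 42 higher and 3 lower (all genes 36% and 27.7%), with medians of 0.17 and 0.07. Large-subunit genes made up 19 of those higher and 3 of those lower, and small-subunit genes 6 and 2. In A2 alone 11 were higher and 7 lower (all genes 25.1% and 25.9%), with a median of 0.02, and in D3 alone 29 and 3 (26.3% and 27.3%), with a median of 0.18. Without D3 naive replicate 2 the D3 counts were 15 and 6 with a median of 0.06, and the counts over both lines 21 and 14 with a median of 0.04.

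The 3 largest falls were called in both lines. Mrps2, homologous to bacterial S2 of the small subunit, was at 150.2, 138 and 147 CPM in A2 ground cells and 99.5, 110.4 and 112 CPM in A2 naive cells. In D3 it was at 144, 146 and 149.8 CPM and 102, 92.1 and 95.6 CPM. No naive library of either line reached a ground-state library, and the difference was -0.52 ± 0.04 (adjusted p = 6.4e-10). Mrpl49, a large-subunit protein found in mitochondria alone, was at 93.2, 94.8 and 99.4 CPM and 57.1, 66.3 and 62.97 CPM in A2 and at 97.8, 95.7 and 96.01 CPM and 63.6, 74.3 and 67.8 CPM in D3. Its groups did not overlap in either line (-0.56 ± 0.05, adjusted p = 3.9e-09). Mrpl43, whose exons overlap those of Twnk by 33.4%, changed by -0.42 ± 0.07 (adjusted p = 1.7e-05), while Twnk, the mitochondrial helicase gene, changed by -0.17 ± 0.04. Mrps36 was at -0.25 ± 0.10 (adjusted p = 0.029), a call lost with DESeq2 and with its size factors (adjusted p = 0.056 in each), with total-count scaling, and without A2 ground 2 or 3, A2 naive 1, D3 ground 3, or D3 naive 1 or 3 (-0.34 to -0.17 over all libraries left out).

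Among the rises Mrpl23 (0.58 ± 0.10), Mrpl15 (0.58 ± 0.07), Mrps17 (0.55 ± 0.07) and Mrps27 (0.46 ± 0.07), a pentatricopeptide-repeat protein, were the largest, with adjusted p from 2.0e-07 to 2.3e-05. Mrps17 was at 48.2, 48.02 and 49.2 CPM in A2 ground cells, 62.1, 80.1 and 68.04 CPM in A2 naive cells, 48.7, 43.97 and 47.3 CPM in D3 ground cells and 57.3, 79.3 and 69.7 CPM in D3 naive cells, with no overlap in either line. Of the stalk-base genes, Mrpl11 rose by 0.31 ± 0.08 (adjusted p = 0.0027) and Mrpl12 by 0.20 ± 0.09 (adjusted p = 0.049), the latter without a call once any 1 of 10 libraries was left out (A2 ground 1 or 2, A2 naive 2, A2 EPL 2, A2 EpiSC 1 or 2, D3 ground 1 or 2, D3 naive 2 or 3; 0.13 to 0.29 over all libraries left out). Mrpl10 was not called (0.05 ± 0.05, adjusted p = 0.38). Mrps18a was at 0.16 ± 0.06 (adjusted p = 0.024), a call lost without A2 naive 2 or D3 naive 2 (0.11 to 0.21 over all libraries left out). Mrps18c was at -0.24 ± 0.08 (adjusted p = 0.015), lost without A2 ground 3, A2 naive 3, D3 ground 3, or D3 naive 1 or 3 (-0.33 to -0.18) and under total-count scaling. Mrps18b, Mrps12, Mrps30 and Mrpl58 were not called, with differences of 0.07, -0.02, 0.14 and -0.08.

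Around the ribosome, 11 of 28 assembly factors were higher and 7 lower in naive cells. In this comparison 31.7% of all genes were higher and 31.8% lower, so the shares of assembly factors were not far from these. Gtpbp10, a GTPase of large-subunit assembly, was at 0.95 ± 0.05 and Mrm1, an rRNA methyltransferase, at -0.49 ± 0.07. Translation factors were higher for 7 of 15 and lower for 3, led by the recycling factor Mrrf at 1.03 ± 0.08 and the release factor Mtrf1 at 0.73 ± 0.08. Tefm rose by 0.65 ± 0.09. Myc rose by 2.502 ± 0.07 and Mycn by 0.89 ± 0.05. Mitochondrially encoded protein genes were lower for 4 of 13 and higher for none (median -0.10, edgeR). Counts of the 16S rRNA mt-Rnr2 fell by 0.59 ± 0.11, and how fully the libraries captured rRNA was not tested. Cytosolic ribosomal protein genes were higher for 1 of 83 and lower for 9 (median -0.06).

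In EPL cells the set lay close to the ground state, with changes in both directions. Against ground, 13 members (17.1%) were higher and 19 (25%) lower, where 33.1% and 33.2% of all genes were (66.3% in either direction). The member median was -0.05 and that of all genes 0.00. With scaling to total counts the member median was 0.01, with 23 higher and 16 lower (all genes 37.4% and 29%), and without D3 ground replicate 3 it was 0.01. By line, 14 were higher and 15 lower in A2 (all genes 27.2% and 27.6%), and 10 and 16 in D3 (29.4% and 28.4%).

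Against naive cells, 36 members (47.4%) were lower in EPL cells and 4 (5.26%) higher, where 24.1% and 27.1% of all genes were (51.2% in either direction). The medians were -0.14 for members and 0.01 for all genes. Of the large subunit 27 were lower and 2 higher, and of the small subunit 9 and 2. D3 gave 41 lower and 2 higher (all genes 20.4% and 24.4%, median -0.25), and A2 gave 12 and 7 (16.1% and 16.8%, median -0.05). Without D3 naive replicate 2 the D3 counts were 17 lower and 4 higher with a median of -0.14, and over both lines 27 and 8 with a median of -0.08. The 4 higher genes were Mrps34, Mrpl49, Mrpl9 and Mrps25, of which Mrps34 and Mrps25 share most of their exon bases with other genes. Mapk8ip3, which overlaps Mrps34, rose by 0.57 ± 0.09 in the same comparison, and Nr2c2, which overlaps Mrps25, by 0.42 ± 0.15. Nme3, on the same strand as Mrps34, also shares exon bases with it, and the change of Nme3 is not given here. The part of reads from these overlapping genes in the member counts was not tested. The Mrps25 call (0.22 ± 0.08) was lost without A2 naive 1, A2 EPL 2, D3 naive 1 or 3, or D3 EPL 3 (0.16 to 0.32 over all libraries left out).

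The genes lowest in EPL cells recur against both earlier stages, which share the EPL libraries. Mrpl14, a core large-subunit protein, was at 20.6, 24.4 and 21.98 CPM in A2 naive cells and 17.7, 15.4 and 15.9 CPM in A2 EPL cells. In D3 it was at 24.5, 33.6 and 21.1 CPM and 11.99, 12.98 and 14.2 CPM. The stages did not overlap in either line, and the difference was -0.73 ± 0.10 against naive (adjusted p = 2.0e-06) and -0.58 ± 0.10 against ground cells. Mrpl54, found in mitochondria alone, changed by -0.68 ± 0.10 against naive and -0.73 ± 0.10 against ground. Mrps6, whose values stand above, changed by -0.60 ± 0.08 and -0.75 ± 0.08, while Slc5a3 changed by -0.16 ± 0.15 and -0.93 ± 0.14. Mrpl36, a zinc-binding protein of the large subunit, changed by -0.52 ± 0.07 against naive cells, and Mrps7, an rRNA-binding protein of the small-subunit head, by -0.60 ± 0.06 against ground.

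Rises against the ground state were led by Mrpl34 (0.46 ± 0.08), Mrps17 (0.39 ± 0.07), Mrpl24 (0.36 ± 0.07) and Mrps34 (0.35 ± 0.08), with adjusted p from 3.9e-05 to 5.5e-04. The rescue factor Mrpl58 fell against ground by 0.53 ± 0.08 (adjusted p = 2.7e-06) and against naive cells by 0.45 ± 0.08 (adjusted p = 5.7e-05). All 3 stalk-base genes fell against naive cells: Mrpl12 by 0.31 ± 0.09, Mrpl11 by 0.29 ± 0.08 and Mrpl10 by 0.23 ± 0.05, with adjusted p of 0.0049, 0.0063 and 7.5e-04. Against ground Mrpl10 alone was called (-0.18 ± 0.05). Mrps30 fell against naive cells by 0.24 ± 0.07 (adjusted p = 0.0053) and was not called against ground (-0.10 ± 0.07). Mrps12, Mrps18a, Mrps18b and Mrps36 were called in neither EPL comparison, with log2 differences between -0.10 and 0.15, and Mrps18c changed by -0.21 ± 0.08 against ground (adjusted p = 0.024). That call was lost without A2 ground 3, A2 EPL 2 or 3, D3 ground 2 or 3, or D3 EPL 1 or 2 (-0.24 to -0.17) and under total-count scaling. Against naive cells it was not called (0.02 ± 0.08).

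Most protein-coding transcripts of the mitochondrial genome were lower in EPL cells. For all genes the shares lower and higher were 33.2% and 33.1% against ground and 24.1% and 27.1% against naive cells. Of the 13 mitochondrially encoded protein genes 11 were lower against ground (median -0.57) and 8 against naive cells (median -0.45), and none was higher in either (edgeR). For mt-Co2, a cytochrome oxidase subunit, the differences were -1.03 ± 0.20 and -0.93 ± 0.20. Counts of the rRNAs went apart against ground, with mt-Rnr1 at 0.52 ± 0.15 and mt-Rnr2 at -0.29 ± 0.11. How fully the libraries captured rRNA was not tested, so these are differences in counts and not measured amounts of rRNA. Assembly factors were divided, in shares not far from those of all genes. Against ground 8 of 28 were higher and 7 lower, and against naive cells 8 and 8. Mettl15, which methylates the 12S rRNA, changed by -1.14 ± 0.14 against ground, and by -0.97 ± 0.14 against naive cells. Rbfa, a small-subunit assembly factor, changed by -0.65 ± 0.07 against naive cells. Translation factors were divided as well (6 of 15 higher and 6 lower against ground, 4 and 7 against naive cells). Cytosolic ribosomal protein genes were higher for 4 and lower for 12 of 83 against ground, and higher for 10 and lower for 5 against naive cells.

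**Figure D5:**
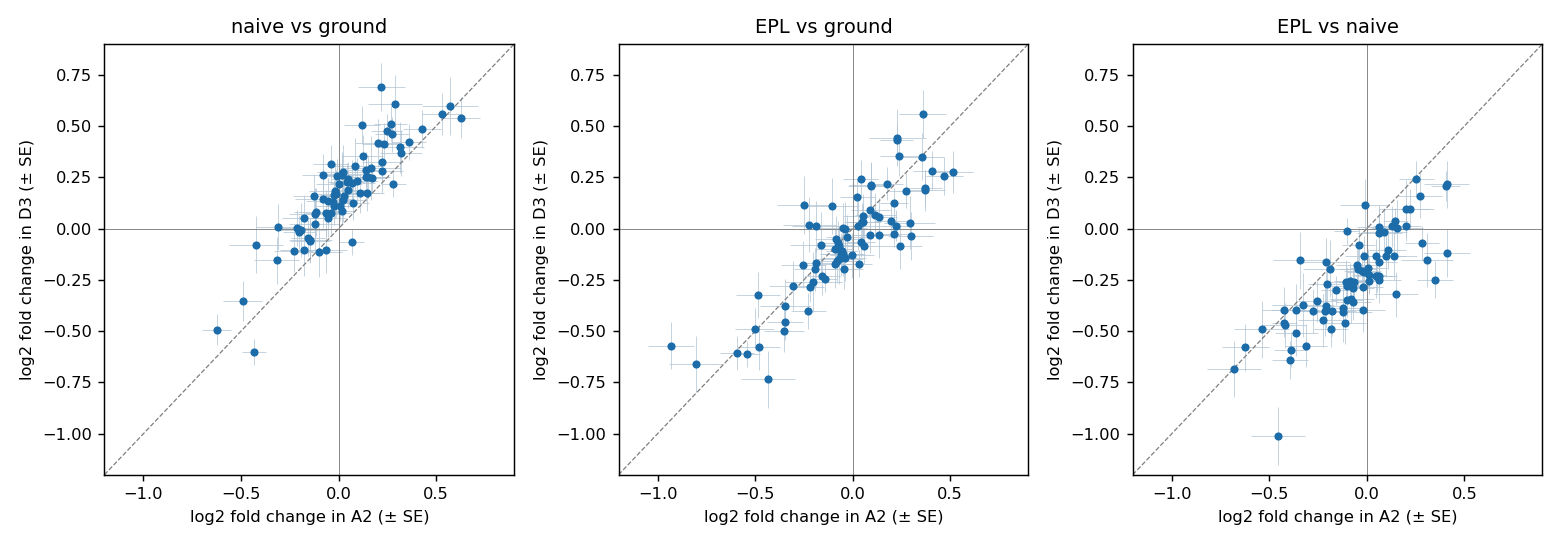
Log2 fold change of each of the 76 genes in A2 (x axis) and D3 (y axis), with SE bars, for the 3 pairs of stages that both lines have; the dashed line marks equal change. Points follow the line in each panel but lie above it in the naive to ground panel and below it in the EPL to naive panel, the comparisons that contain D3 naive replicate 2.

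The stage differences were measured in A2 and D3 on separate libraries, so the lines can be set side by side. Between naive and ground cells 55 of 76 members (72.4%) changed in the same direction in both lines, against 83.02% of all genes, and 14 (18.4%, all genes 40.9%) were called in both, each in the same direction (11 higher, 3 lower). For EPL against ground 63 (82.9%, all genes 81.1%) had the same direction and 20 (26.3%, all genes 43.6%) were called in both (7 higher, 13 lower). For EPL against naive 56 (73.7%, all genes 71.6%) did, and of 15 called in both (19.7%, all genes 22.1%) 14 shared a direction. Across the 76 genes Pearson's r between the lines was 0.88, 0.86 and 0.80 for the 3 comparisons, against 0.84, 0.85 and 0.57 over all genes. These are descriptions across genes, which share libraries and are not independent.

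The line by stage interaction was called for 1 of 76 members, against 17% of all genes. The gene was Mrpl24, a core large-subunit protein (adjusted p = 0.007), and 12 members had an unadjusted p below 0.05. The share of all genes at that unadjusted p was not taken. The count was 4 with DESeq2 and 6 without the filter on low counts. Taken pair by pair, the change from naive to EPL cells differed between the lines for 2 members, Mrpl24 and Mrps12 (12.7% of all genes), and no member was called for the change from ground to naive (3.06%) or from ground to EPL cells (13.3%, edgeR). In A2 Mrpl24 was at 44.97, 50.1 and 42.3 CPM in ground cells, 48.9, 51.9 and 48.6 CPM in naive cells and 64.2, 62.5 and 63.6 CPM in EPL cells. In D3 it was at 47.6, 53.8 and 51.9 CPM, 65.7, 83.3 and 68.8 CPM and 57.4, 58.6 and 67.2 CPM. A2 was highest in EPL cells with no overlap, and D3 was highest in naive cells, where 1 EPL library overlapped. Exons of Rrnad1 on the opposite strand cover 26.3% of its exon bases.

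The lines differed in level for some genes at every stage. Averaged over ground, naive and EPL cells, 20 members (26.3%) were higher and 6 (7.89%) lower in D3 than in A2, where 20% and 20.7% of all genes were (40.7% in either direction). The medians were 0.08 for members and -0.0023 for all genes, and the member median was 0.04 without D3 naive replicate 2. In ground cells alone 4 were higher and 3 lower (all genes 9.13% and 10.9%), in naive cells 23 and 2 (14.5% and 15.4%), and in EPL cells 2 and 6 (15.6% and 13.8%). Without D3 naive replicate 2 the naive counts were 7 and 3, and its median of 0.21 was 0.04.

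Mrpl34, homologous to a small basic protein of the bacterial large subunit, differed most. It was at 40.8, 38.2 and 40.3 CPM in ground, 41.98, 49.4 and 47.4 CPM in naive and 55.7, 47.7 and 49.5 CPM in EPL cells of A2, and at 46.9, 46.5 and 57.7, 69.4, 102 and 72.7 and 70.03, 72.1 and 80.2 CPM in those of D3. D3 was above A2 at every stage without overlap, by 0.56 ± 0.07 on average (adjusted p = 6.2e-07). Mrps26 (0.45 ± 0.06), Mrps31 (0.42 ± 0.05) and Mrpl46 (0.29 ± 0.06) were the next highest in D3. Exons of Mrpl46 overlap those of Mrps11, another member, on the opposite strand (12.2% of its exon bases). Lower in D3 were Mrps14 (-0.41 ± 0.06), Mrpl15 (-0.36 ± 0.06), Mrpl30 (-0.32 ± 0.05) and Mrpl44 (-0.24 ± 0.05). Of the stalk-base genes Mrpl11 and Mrpl10 were called higher (0.22 and 0.14), and Mrpl12 was not (0.18 ± 0.07, adjusted p = 0.05). Mrps30 was higher by 0.23 ± 0.05 and Mrps18b lower by 0.14 ± 0.04, though in naive cells alone Mrps18b was 0.0217 higher in D3. Mrps12, Mrps18a, Mrps18c, Mrps36 and Mrpl58 were not called.

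In the genes around the set, 12 of 28 assembly factors were higher and 4 lower in D3 (all genes 20% and 20.7%). Ddx28, an RNA helicase of large-subunit assembly, was at 0.48 ± 0.06. Gadd45gip1, a large-subunit protein under another name, was higher by 0.72 ± 0.07. The release factor Mtrf1 (-0.78 ± 0.06) and the transcription factor Tfb2m (-0.52 ± 0.05) were lower. Of the mitochondrially encoded protein genes 1, mt-Nd4l, was lower (-0.64 ± 0.13) and none was higher.

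Across the 6 comparisons of stages, Mrpl15, Mrpl17, Mrpl39 and Mrpl44 were called in every one, and Mrpl13 and Mrps21 in none. Shares of all genes called in every one or in none were not taken. Counted by libraries that do not overlap in any line compared, 14 members were higher and 3 lower in naive than in ground cells (all genes 21.7% and 23.4%). The counts were 10 and 15 in EPL against ground cells (24% and 23.9%) and 1 and 17 in EPL against naive cells (14.3% and 12.8%). In EpiSCs they were 2 and 61 against EPL (40.1% and 32.9%), 0 and 62 against ground (40.5% and 36%) and 1 and 61 against naive cells (40.5% and 32.3%). The genes higher in EpiSCs were Mrps6 and Mrpl48 against EPL and Mrps6 against naive cells. D3 was above A2 at all 3 stages for 4 members, Mrpl34, Mrpl42, Mrps26 and Mrps31, and below it for none (all genes 5.63% and 6%).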

How the data were processed

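RNA was measured in 21 libraries, 3 in each of 7 groups. The values are raw counts by Ensembl gene, in a single table from the authors. Per the submitters' processing notes, the tools were featureCounts, HISAT2 and SAMtools, and the build was GRCm38. Versions and strand setting are not given in the labels. Per the labels' protocols, libraries were made with Illumina TruSeq RNA kit v2, which does not mark strand. All 39396 identifiers matched GENCODE M21, and no column of values went unused.

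Counts were tested with edgeR 4.0.16 (R 4.3.3, quasi-likelihood, TMM scaling) in 1 fit over the 7 groups with 14 residual degrees of freedom. filterByExpr (minimum count 10, minimum total 15) kept 16575 genes, and p-values were Benjamini-Hochberg adjusted over them, with a threshold of 0.05. Differences between ground, naive and EPL cells are means over A2 and D3, and EpiSCs were compared within A2. On simulated counts for the 16575 genes, with 50 genes changed at each fold, 14% at 1.25-fold, 46% at 1.5-fold and 66% at 2-fold were recovered for EpiSC against EPL, and 36%, 78% and 86% for naive against ground. The simulation changed far fewer genes than the 70.4% and 63.5% called in the data for these comparisons. The adjustment of p was therefore stricter in the simulation, and the shares recovered do not give the sensitivity of the calls above.

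In each comparison the called members named are the 4 that rose most and the 4 that fell most. In the interaction up to 4 called members with the smallest adjusted p were named. Mrpl12, Mrpl11, Mrpl10, Mrps12, Mrps18a, Mrps18b, Mrps18c, Mrps30, Mrps36 and Mrpl58 were given in every comparison, as values or, where not called, by name or range. Up to 3 called genes were named per surrounding list. Members and lists were chosen with earlier results of these data known. Mrpl42 and Mrpl48 in the counts of libraries without overlap, Mrpl13, Mrpl32, Mrpl39, Mrpl41 and Mrps21 as members called always or never, and the genes shown as promoters were singled out after their values were seen. Alternatives were other size factors, total-count scaling, other filters, DESeq2 1.42.0, a replicate block, the compared groups alone, single lines or stages, and each library left out.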

Additional observations from a re-analysis of the deposited data

Results flagged for a closer look

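In 2 genes the change between EPL and naive cells differed between the lines, as a test of that difference called it (edgeR, D3 minus A2, adjusted over all genes tested, of which 12.7% were called). For Mrpl24 the difference between the lines was -0.60 ± 0.13 log2 units (adjusted p = 0.0038). It rose by 0.35 ± 0.09 in A2 (adjusted p = 0.0058) and fell by 0.25 ± 0.09 in D3 (adjusted p = 0.032). Without D3 naive replicate 2, where the level was highest, the difference was -0.49 ± 0.12 (adjusted p = 0.0098).

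For Mrps12 the difference between the lines was -0.53 ± 0.17 (adjusted p = 0.038). The gene rose by 0.41 ± 0.12 in A2 (adjusted p = 0.0094), and its D3 value of -0.12 ± 0.12 was not called (adjusted p = 0.44). A2 libraries were at 30.4, 39.0 and 36.8 CPM in naive and 47.4, 46.6 and 47.5 CPM in EPL cells, with no overlap. D3 libraries were at 38.2, 52.2 and 40.5 CPM and at 42.4, 36.7 and 41.7 CPM, which overlap. Without D3 naive replicate 2 the call was lost (-0.38, adjusted p = 0.12).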

How the results depend on the processing

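Total-count scaling gave 42 members higher and 3 lower between naive and ground cells and 23 higher between EPL and ground cells, with a member median of 0.0137 there. It gave 7 higher in EpiSCs than in EPL cells, 9 higher and 36 lower than in ground cells and 4 higher than in naive cells, and summed levels of 4203 CPM in A2 ground cells and 3540 CPM in EpiSCs. With the compared groups alone 22 members were higher in EPL than in ground cells. The interaction was called for 6 members without the filter and 4 with DESeq2.

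Single lines gave 11 higher (A2) and 3 lower (D3) for naive against ground, and for EPL against naive 7 higher and 12 lower in A2 and 2 higher in D3. Between the lines 4 were higher and 3 lower in ground cells, 2 lower in naive cells and 2 higher in EPL cells, where the median was -0.0047. Mrps18b was then 0.0217 higher in naive cells of D3. In alternatives chosen after seeing the data, without D3 naive replicate 2, D3 alone gave 15 higher for naive against ground and 17 lower for EPL against naive, and naive cells alone 7 higher and 3 lower in D3 than in A2.

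Leaving out 1 library at a time gave 21 to 36 higher and 3 to 14 lower for naive against ground (3 without A2 ground 3, D3 ground 3, or D3 naive 1 or 3, and 14 without D3 naive 2). It gave 13 to 18 and 16 to 20 for EPL against ground, 3 to 8 and 27 to 39 for EPL against naive (8 without D3 naive 2), 1 to 2 and 48 to 61 for EpiSC against EPL, 0 to 2 and 54 to 60 against ground (0 higher without A2 ground 3 or A2 EpiSC 1 or 2), and 0 to 2 and 48 to 63 against naive. D3 against A2 gave 17 to 27 and 6 to 9, the interaction 1 to 5 (over 1 without A2 naive 2, A2 EPL 2, A2 EpiSC 2 or 3, D3 naive 1 or 3, or D3 EPL 3), and any difference 69 to 76. The median for EPL against ground ran from -0.0645 to 0.0094, the latter without D3 ground replicate 3. The cause of these shifts was not tested.

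The series' design text calls the samples paired without saying how. Over all pairs of groups, libraries with the same replicate number did not deviate together (median correlation -0.019, against 0.011 for different numbers). Of 21 libraries 5 were closest to their own number, and the numbers were not taken to pair them. The highest correlation was 0.36 for same and 0.29 for different numbers. Pairs within and between lines were pooled, so a pairing within a line alone is not excluded. With the replicate block the counts of higher and lower members were 25 and 6 for naive against ground, 13 and 19 for EPL against ground, 4 and 34 for EPL against naive, 1 and 54, 1 and 59, and 0 and 61 for EpiSC against EPL, ground and naive, 21 and 6 for D3 against A2, and 1 for the interaction. Of 3531 values for single genes and medians under these settings, 3361 counted as the same, 97 lost a call, 61 gained one, 8 moved and 4 reversed. Among counts of members and summed levels, 438 values counted as the same and 45 moved. The settings include each library left out, also where a comparison does not use that library, which raises the share counted as the same. Counted as the same were also genes that changed sign without a call in either setting, and medians that moved by no more than the median SE. A reversal was a change of sign of a median, or of a gene called in at least 1 of the settings. The level of 3 counts given for Mrpl53 covers counting error only.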
